A study of Caenorhabditis elegans with 2 samples.

Results

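The autosomal tRNA genes of Caenorhabditis elegans were examined for binding of SNPC-4 by chromatin immunoprecipitation and sequencing. The set holds every gene of biotype tRNA that the Ensembl 115 annotation of WBcel235 (the assembly also called ce11) places on an autosome, 336 of 634 annotated tRNA genes, with bound and unbound genes alike. A further 276 lie on X. All 336 were found in RefSeq with the same coordinates, which names an isotype for all but DY3.t2 and C08E8.t3. The study has 1 group of 2 replicates, numbered in the labels as biological: whole young adults of strain YL457, with males and females pooled. Both carry unc-119(ed3) III and the integrated transgene vrIs87, in which the pie-1 promoter drives GEI-11::GFP with the gei-11 3' end and an unc-119(+) marker. GEI-11 is an older name of SNPC-4. Another label describes the tag as C-terminal GFP-FLAG. The pie-1 promoter is a germline promoter, so the tagged protein need not follow the native protein's distribution over tissues.

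A tRNA gene is transcribed by RNA polymerase III from a promoter inside the gene, whose A box and B box are bound by TFIIIC, and transcription ends at a run of T after the gene. SNPC-4 is the worm member of the family of SNAP190, the DNA-binding subunit of the snRNA-activating complex SNAPc, which is best known for binding an element upstream of small nuclear RNA genes. The selenocysteine tRNA gene is the exception among tRNA genes: in vertebrates its promoter lies upstream of the gene and uses SNAPc and a TATA element. In the worm SNPC-4 also binds the piRNA clusters, regions of chromosome IV that are dense in genes for germline small RNAs.

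The sequences that follow belong to the genes on which the results turn. They were read from the RefSeq copy of WBcel235 (ce11), 5′ to 3′ on the gene's strand. The selenocysteine gene K11H12.t1 is shown first, because its strongest summit lay upstream of the gene. Its line gives 100 bases before the start and then the gene, with the gene and an upstream TATA in capitals.
K11H12.t1, chrIV:658081-658266, plus strand: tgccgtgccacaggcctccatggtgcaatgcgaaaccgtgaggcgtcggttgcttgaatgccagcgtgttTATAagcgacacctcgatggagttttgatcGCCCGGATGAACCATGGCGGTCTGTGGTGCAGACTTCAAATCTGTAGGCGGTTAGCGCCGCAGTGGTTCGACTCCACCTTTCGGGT

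The alanine genes that share 1 gene body with Y37A1B.t1 are shown because copies with the same gene differed in signal. The first line is the gene itself, with the B box core GGTTCGA in capitals, and the others are the 60 bases before each of the 5 copies, with TATA in capitals.
Y37A1B.t1 gene, chrIV:14013805-14013876, minus strand: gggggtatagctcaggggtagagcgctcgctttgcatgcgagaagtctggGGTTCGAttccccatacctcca
Y37A1B.t1 upstream, chrIV:14013877-14013936, minus strand: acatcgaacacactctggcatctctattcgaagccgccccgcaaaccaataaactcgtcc
Y105C5A.t2 upstream, chrIV:15604384-15604443, minus strand: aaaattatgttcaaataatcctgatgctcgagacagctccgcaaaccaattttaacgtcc
B0491.t1 upstream, chrII:11334448-11334507, plus strand: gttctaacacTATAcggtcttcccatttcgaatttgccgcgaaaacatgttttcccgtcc
B0491.t2 upstream, chrII:11334085-11334144, minus strand: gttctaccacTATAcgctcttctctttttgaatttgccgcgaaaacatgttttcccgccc
Y38E10A.t1 upstream, chrII:12678254-12678313, plus strand: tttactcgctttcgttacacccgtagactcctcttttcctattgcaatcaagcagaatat

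The phenylalanine genes that share the body of ZC412.t1 are shown for the same reason, in the same order. The body holds neither of the B box cores searched, and no TATA lies in these upstream bases, so no letter is in capitals.
ZC412.t1 gene, chrV:14876389-14876461, minus strand: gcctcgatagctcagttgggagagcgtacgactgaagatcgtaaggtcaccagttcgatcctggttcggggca
ZC412.t1 upstream, chrV:14876462-14876521, minus strand: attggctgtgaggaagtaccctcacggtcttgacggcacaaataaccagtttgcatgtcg
Y66D12A.t1 upstream, chrIII:11554765-11554824, plus strand: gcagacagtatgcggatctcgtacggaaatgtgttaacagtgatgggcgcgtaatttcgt
F22B7.t3 upstream, chrIII:8652995-8653054, plus strand: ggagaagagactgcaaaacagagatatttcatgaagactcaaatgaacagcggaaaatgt
F22B7.t4 upstream, chrIII:8653681-8653740, minus strand: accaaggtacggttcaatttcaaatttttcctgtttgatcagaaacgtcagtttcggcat
C06G4.t1 upstream, chrIII:7978544-7978603, minus strand: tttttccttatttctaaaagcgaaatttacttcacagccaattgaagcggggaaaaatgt

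A gene was called bound when the summit of a peak in the authors' thresholded set of 1648 peaks lay within 500 bp of its annotated start. By that rule 167 of the 336 autosomal tRNA genes were bound (49.7%, exact binomial 95% interval 44.2 to 55.2%). The same rule called 5.11% of all 46926 annotated genes and 4.30% of autosomal protein-coding genes. In each replicate's own 1648 strongest peaks the count was 153 in replicate 1, where 5.15% of all genes were called, and 176 in replicate 2, where 5.36% were called. The mean over the replicates was 49.0% ± 4.84 (SD, n = 2). The intervals treat genes as separate draws and cover counting error only, and the read depth is unknown. In whole animals, binding in fewer cells and weaker binding per cell cannot be told apart. The genes are not independent, because 30 bound genes shared 15 peaks with a neighbour and 250 of the 336 have another tRNA gene with the same body. With 2 replicates in 1 group no test over samples was possible, and the differences given here rest on counts, intervals and the replicates.

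The selenocysteine gene K11H12.t1 had one of the strongest peaks at a tRNA gene. It lies at chrIV:658181-658266 (ce11, plus strand), in an intron of K11H12.8 on the same strand. Its peak signal was 155 in replicate 1, 102 in replicate 2 and 256 in the pooled list, where it ranked 101 of 30000. Signal here means the value that the authors deposited for each peak, and its scale may differ between lists. Values are therefore compared within a list, except where replicate 1 and replicate 2 are compared directly or averaged. Those figures take the replicate lists to be on like scales. Both replicates were well above their medians at bound tRNA genes on IV outside the piRNA clusters, where this gene lies, 31.3 and 34.5. The medians at unbound tRNA genes were 11.8 and 13.3. The summit lay 66 bp upstream of the start, and in the printed sequence the TATA spans positions -30 to -27. The nearest other annotated gene start was 2791 bp away.

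An upstream summit of this kind was rare among the bound autosomal tRNA genes. The strongest summit lay 50 bp or more upstream at 14 of 167, and 11 of these had another tRNA gene or short noncoding gene start within 500 bp. The other 3 were K11H12.t1, the cysteine gene C37A2.t1 at -53 bp and the threonine gene T04D3.t4 at -462 bp; they were picked out after their values were seen. C37A2.t1 had a mean signal of 24.3 ± 1.11 over the replicates (SD, n = 2) and 44.2 in the pooled list. T04D3.t4 had 14.9, 40.3 and 45.8, and a protein-coding gene, T04D3.8, starts 428 bp from it. Of the 3, K11H12.t1 alone had a pooled signal above the median of bound genes.

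Over all 167 bound genes the strongest summit lay a median of 18 bp downstream of the start (quartiles -13 and 60). It fell inside the gene body at 79 (47.3%), upstream of it at 59 (35.3%) and beyond its end at 29 (17.4%). The inside share was 43.1% in replicate 1 and 39.8% in replicate 2 (41.5% ± 2.33, SD, n = 2), and the upstream share 35.9% and 40.9% (38.4% ± 3.54, SD, n = 2), so replicate 2 had slightly more summits upstream than inside. Summits were thus centred on the start and the first part of the gene, and 85.0% lay within 100 bp of the start. At the 119 bound genes with no tRNA or other short noncoding start within 500 bp, 66 summits lay inside the gene (55.5%). On X the inside share was 43.0% of 200 bound genes and the median 22.5 bp. Among the 105 unbound autosomal genes with a weaker pooled summit in the window, 36 summits lay inside (34.3%). Peaks were a median of 350 bp wide, several times the median gene length of 72 bp, so a summit does not place the protein on a box within the gene.

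**Figure D1:**
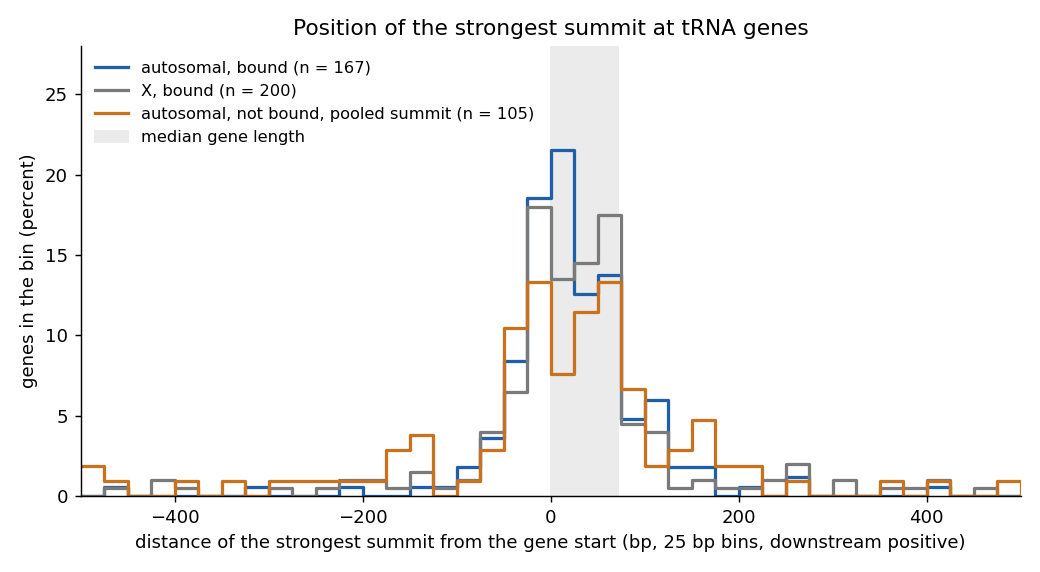
Distance of the strongest summit from the start of each tRNA gene (x axis, bp, downstream positive, 25 bp bins) against the percent of genes in each bin (y axis). The blue line is the 167 bound autosomal genes, the grey line the 200 bound X genes and the orange line the 105 unbound autosomal genes with a pooled summit, and the shaded band is the median gene length of 72 bp. The bound autosomal and X lines both peak near the start and over the gene.

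Chromosome IV differed from the other autosomes. Of its 71 tRNA genes 51 were bound (71.8%, 59.9 to 82.0%), with 50 in each replicate. The counts were 24 of 66 on I (36.4%, 20 and 27 in the replicates), 27 of 57 on II (47.4%, 27 and 27), 31 of 64 on III (48.4%, 26 and 39) and 34 of 78 on V (43.6%, 30 and 33). Without IV the share was 116 of 265 (43.8%), with 38.9% in replicate 1 and 47.5% in replicate 2. The replicates gave IV the highest share in each, and they did not order I, II, III and V alike.

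The share was highest inside the piRNA clusters of IV, and the rest of IV lay between the clusters and the other autosomes. The clusters were taken as chrIV:4800001-6600000 and chrIV:13600001-17300000, where annotated piRNA genes are dense. Inside them 33 of 41 tRNA genes were bound (80.5%, 65.1 to 91.2%), with 33 in each replicate. On the rest of IV it was 18 of 30 (60%, 40.6 to 77.3%), with 17 in each replicate. Protein-coding genes were also bound more often there, 10.4% inside the clusters against 5.03% on the rest of IV. The share of tRNA genes was 16 of 18 for those with no piRNA start within 500 bp and 17 of 23 for those with one. Whether the tRNA genes or the piRNA genes around them set this share was not tested.

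Signal separated the cluster genes further. The bound genes inside the clusters had a median pooled signal of 147, against 62.6 on the rest of IV and 53.5 on the other autosomes. In replicate 1 the 3 medians were 78.0, 31.3 and 26.6, and in replicate 2 they were 78.4, 34.5 and 30.2. Both replicates placed the cluster genes more than 2-fold above either other group. Among the 33 bound cluster genes the lowest pooled signal was 39.0 and the next lowest 92.0, so 32 stood at 92.0 or more. That level was taken from the cluster genes themselves, and 19 of 134 bound genes elsewhere reached it. The exception was the serine gene Y51H4A.t2, with a pooled signal of 39.0 and signals of 15.7 and 17.4 in the replicates. None of the 32-base words around its start is unique in the genome.

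Other peaks inside the clusters did not reach this level as a group. The 33 thresholded peaks there with a summit within 500 bp of a tRNA start had a median signal of 147 (quartiles 109 and 193). The other 229 thresholded peaks inside the clusters had a median of 58.6 (42.6 and 96.9). Elsewhere on the autosomes, 122 peaks at tRNA genes had a median of 53.8 (46.2 and 72.0) and 938 other peaks one of 52.6 (42.9 and 80.1). The maxima were 332 at cluster tRNA genes and 830 at other cluster peaks, so single peaks of the latter were stronger.

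The 8 unbound cluster genes were 3 serine, 2 glycine, 1 alanine, 1 histidine and 1 valine gene. Serine thus had 1 bound gene of 4, Y51H4A.t2, which neither replicate called, whereas replicate 1 called the unbound Y73F8A.t3. Bound counts inside the clusters were 5 of 6 for alanine, 6 of 7 for histidine, 4 of 5 for valine and 4 of 6 for glycine. Every gene of the other isotypes there was bound, with at most 3 genes each. Low uniqueness went with some of the unbound genes: the serine gene Y51H4A.t6 has no unique 32-base word around its start, and Y73F8A.t4 has 50% unique words. The glycine genes Y51H4A.t5 and Y51H4A.t3 had 60% each. Y51H4A.t3 gave signals of 6.93 and 7.01 in the replicates, whereas Y51H4A.t4, a glycine gene nearby, gave 70.4 and 81.5.

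**Figure D2:**
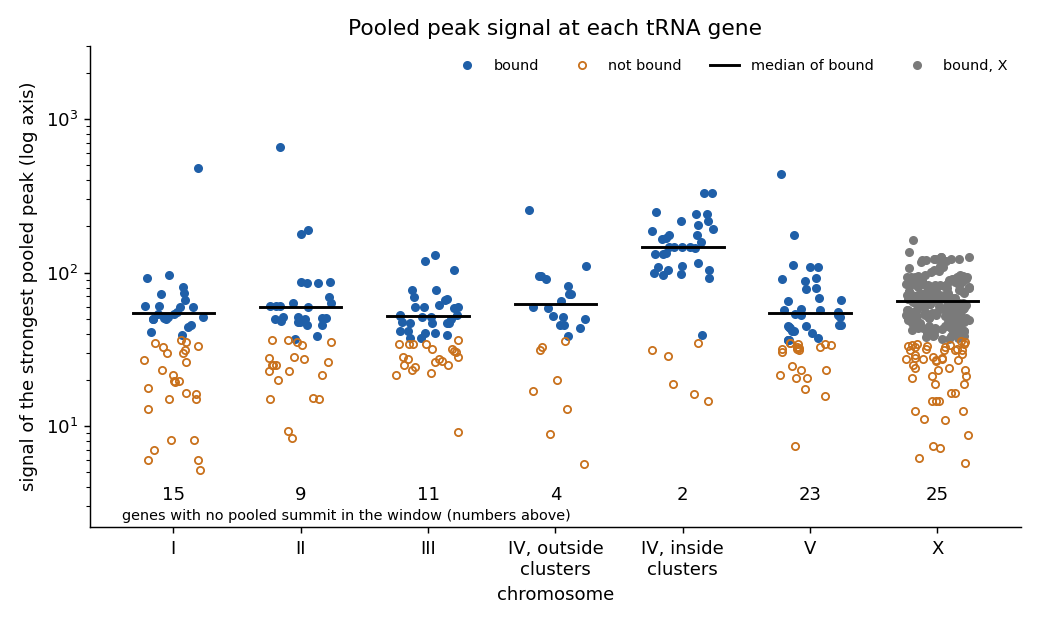
Signal of the strongest pooled peak within 500 bp of each tRNA gene start (y axis, log scale) by chromosome (x axis), with IV split at the piRNA clusters. Filled points are bound genes (grey on X), open points are unbound genes, black lines are medians of bound genes, and the numbers above the axis count genes with no pooled summit in the window. The cluster genes stand around a median of 147 and the other autosomal groups between about 52 and 63.

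The strongest peak at an autosomal tRNA gene stood at the isoleucine gene C27A2.t1 (chrII:5057447-5057520, minus strand), inside C27A2.12 on the same strand. Its signal was 330 in replicate 1, 318 in replicate 2 and 656 pooled, with the summit 18 bp upstream. The lysine gene M01E5.t1 (chrI:13297673-13297745, minus strand) followed with 270, 212 and 483. Its summit lay 85 bp upstream of the start, and the spliced leader gene sls-2.9 also starts within 500 bp, so the peak cannot be assigned to either gene alone. The phenylalanine gene ZC412.t1 (chrV:14876389-14876461, minus strand) gave 226 in both replicates and 439 pooled, with the summit at -26 bp. An annotated noncoding gene starts 84 bp from C27A2.t1, 86 bp from M01E5.t1 and 76 bp from ZC412.t1. Such genes are common around the set: 192 of the 336 have a noncoding gene over them on the opposite strand, and 52.6% of those were bound against 45.8% of the rest. The intervals overlap, and the replicates differed in direction, with 44.8% against 46.5% in replicate 1 and 55.7% against 47.9% in replicate 2.

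Of the 12 strongest peaks 9 were on IV, and 8 of those 9 lie inside the piRNA clusters. The alanine gene Y37A1B.t1 had signals of 181, 157 and 332 in replicate 1, replicate 2 and the pooled list. The proline gene F02H6.t1 had 171, 155 and 328. Next came Y105C5A.t2 (Ala) with a pooled signal of 250, B0350.t1 (Lys) and Y73F8A.t1 (Val) with 242 each, Y7A9D.t2 (Ala) and Y7A9D.t3 (Val) with 216 each, and Y105C5A.t1 (Lys) with 206. The replicates differed most at B0350.t1, which had 89.4 in replicate 1 and 156 in replicate 2. Of the 42 bound genes in the upper 25% of signal, 30 were on IV.

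Most bound autosomal genes had far weaker peaks than these. The 10th, 50th and 90th percentiles of the pooled signal were 41.7, 60.4 and 177, and the lowest bound value was 36.6. On X the same percentiles were 43.3, 65.3 and 101, with a maximum of 163. The autosomal genes therefore had a lower middle and a longer upper end than the X genes, and the upper end was made up mainly of IV.

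Each replicate's full list holds 30000 regions, so a peak in it is a loose measure of binding. Among all 336 autosomal genes, 63 had no summit in the window in replicate 1 and 35 had none in replicate 2. The pooled list, of the same length, had a summit at 46.6% of all annotated genes. That share was not counted for the replicate lists. With that limit, the replicates' own lists both held a peak at 165 of the 167 bound genes. Their signals were correlated across these genes (Spearman's rho 0.605, a description across genes that share peaks and sequence), against 0.286 over 197 genes on X. They lay within 2-fold of each other at 143 of 165, with a median ratio of replicate 1 to replicate 2 of 1.04. Both figures take the replicate lists to be on like scales, which was not tested. By the stricter rule of 1648 peaks in each replicate, 110 of the 167 were bound in both replicates (65.9%), 17 in replicate 1 only, 33 in replicate 2 only and 7 in neither. Disagreement was ranked by signal percentile within each list, among genes with a peak in both replicates' lists. By that measure the widest at a bound gene was at the glycine gene C06B8.t3, with 39.9 in replicate 1, 2.91 in replicate 2 and 87.7 in the pooled list. Among unbound genes it was at the isoleucine gene Y119D3B.t1, with 3.22 and 21.4, the lysine gene Y70C5A.t1, with 2.94 and 13.3, and the arginine gene Y46G5A.t1, with 3.12 and 13.3. The unbound tyrosine gene C16D9.t4, picked out after its values were seen, had no summit in replicate 2 and is outside this ranking. It had 402 in replicate 1 and 7.41 in the pooled list, and a snoRNA gene starts within 500 bp of it.

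**Figure D3:**
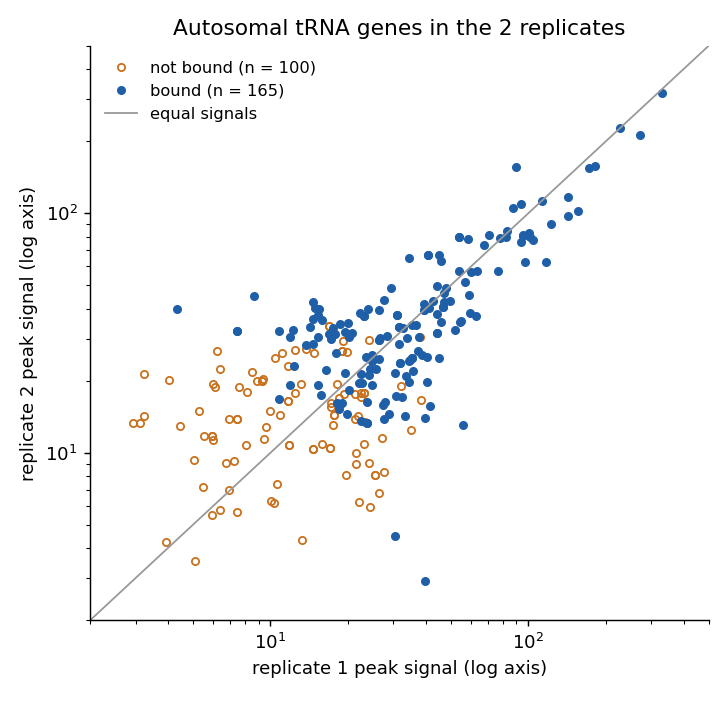
Peak signal in replicate 1 (x axis) and replicate 2 (y axis), both on log scales, for autosomal tRNA genes with a peak in both lists. Filled points are the 165 bound genes and open points the 100 unbound genes, and the line marks equal signals. The points lie close to the line at high signal and spread widely below about 40.

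The threshold passed through a continuous range of signals. The lowest bound genes were the glutamine gene K02E11.t1 with a pooled signal of 36.6, the proline genes T22F3.t4 and T22F3.t1 with 36.7 on a shared peak, and the histidine gene W09G10.t1 with 37.1. The highest unbound genes were the serine gene K07A1.t1 with 36.5, the leucine genes T05A8.t1 and T05A8.t2 with 36.4 on a shared peak, and the tyrosine gene T22F7.t1 with 36.2. K02E11.t1 had 30.5 in replicate 1 and 4.47 in replicate 2, and T22F7.t1 had 4.04 and 20.2. The replicates did not place these 8 genes on one side of the threshold.

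Of the 169 unbound genes, 57 had a pooled summit in the window among the next 1648 peaks by rank and 48 had one further down. In all, 272 of the 336 had some pooled summit (81.0%), but so did 46.6% of all annotated genes, since the pooled list includes background regions. On X 251 of 276 had one (90.9%). One or both replicates called 57 of the unbound genes: 24 in replicate 1 only, 31 in replicate 2 only and 2 in both. The 2 were the leucine gene B0244.t2, with 37.9 and 30.4 in the replicates and no pooled summit in the window, and the valine gene T28D6.t2, with 24.1, 29.5 and a pooled signal of 30.3.

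No summit stood in the window in any list at 27 genes. In genome order the first 8, all on I, were Y39G10AL.t1, DY3.t2, C36F7.t1, T22A3.t4, T22A3.t2, T22A3.t3, ZK39.t1 and C17D12.t1. Of the 27, 20 lie inside protein-coding genes, 18 have a sequence of their own and 7 have fewer than 50% unique words. Among all 336 genes the same counts were 194, 86 and 23. T22A3.t4 and T22A3.t3 have no unique word, and the part of read placement in their missing peaks was not tested. DY3.t2 and ZK39.t1 have 100% and 99.4% unique words and still had no summit. Over the whole set, genes with fewer than 50% unique words were bound at 4 of 23 (17.4%, 4.95 to 38.8%). Genes with only unique words had a share as low, 3 of 15 (20.0%, 4.33 to 48.1%), and the 298 between had 53.7%.

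By isotype, aspartate genes had the highest bound share in the thresholded set among the isotypes with at least 10 genes, 12 of 15 (80.0%, 51.9 to 95.7%). The replicates gave 8 and 11. Glutamine followed with 9 of 12 (6 and 8 in the replicates) and threonine with 14 of 20 (11 and 12). The lowest were asparagine with 3 of 14 (21.4%, 4.66 to 50.8%; 2 and 4 in the replicates) and serine with 7 of 21 (33.3%, 14.6 to 57.0%; 5 and 6). Tyrosine had 4 of 11, glycine 13 of 35 and isoleucine 6 of 16. The intervals of most isotypes overlap, and the replicates changed the order, also at the top. In replicate 1 the highest shares were those of histidine (72.7%), leucine (68.2%) and alanine (66.7%), and aspartate had 53.3%. At cysteine genes replicate 1 called 1 of 6 and replicate 2 called 6 of 6.

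On X, 5 of 6 asparagine, 14 of 18 serine and 17 of 20 glycine genes were bound, above the X share of 72.5%. Tyrosine, with 5 of 8, and isoleucine, with 8 of 13, were below it, as was aspartate with 8 of 12. Chromosomal place goes with isotype here: 10 of the 15 aspartate genes are on IV, and none of the 14 asparagine genes is.

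**Figure D4:**
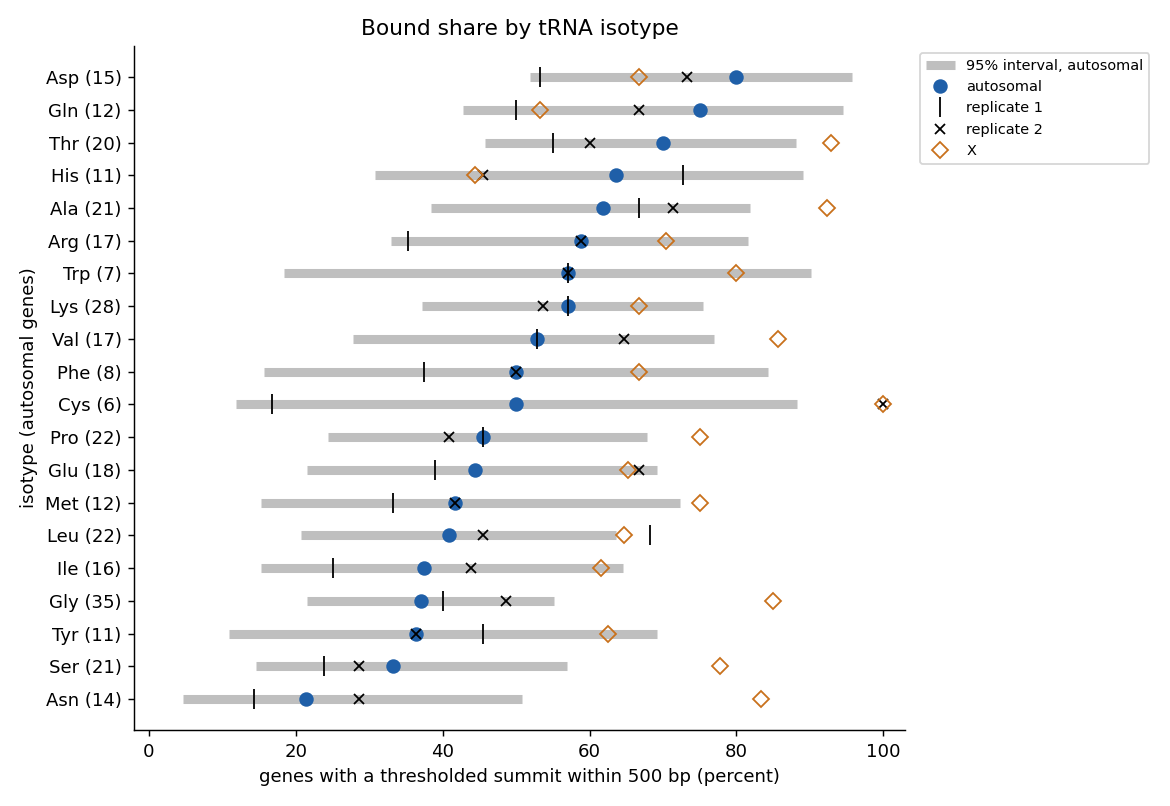
Percent of genes bound (x axis) for each isotype with at least 6 autosomal genes (y axis, number of autosomal genes in brackets). Blue points are the autosomal share from the thresholded set with its exact 95% interval in grey, bars and crosses are replicates 1 and 2, and diamonds are the X genes. Autosomal shares run from 21.4% for Asn to 80.0% for Asp, and the X share is the higher one at most isotypes.

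Genes with the same sequence were often bound in one place and not in another. The 336 genes have 137 distinct bodies, and 43 bodies occur at 2 or more autosomal genes, 242 genes in all. Of these 43 families 33 held bound and unbound copies, 6 had every copy bound and 4 had none. These counts are from the thresholded set alone. Both replicates called 110 of the 167 bound genes, and at least 1 called 57 of the unbound genes. How much such differences between lists add to the mixed families was not tested. In the largest, 18 identical glycine genes, 5 were bound (6 and 10 in the replicates). Its strongest bound copy was Y43D4A.t2 on IV, with signals of 87.5, 105 and 193 in replicate 1, replicate 2 and the pooled list, and the unbound C12C8.t6 on I had 5.95 and 11.8 in the replicates. Of 15 identical lysine genes 9 were bound, from M01E5.t1 to the unbound F56F4.t2, which had 35.3 and 12.5 in the replicates and no pooled summit. Of 13 identical asparagine genes 3 were bound, the strongest being ZK507.t1 with 63.1, 57.5 and 130, whereas W06D4.t1 had 8.11, 18.0 and 31.5.

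The alanine and phenylalanine families whose upstream bases are printed above show the same spread with letters beside the values; they were picked after their values were seen. Of the 5 alanine genes, Y37A1B.t1 had a pooled signal of 332 and Y105C5A.t2 one of 250, both inside the piRNA clusters. B0491.t1 and B0491.t2 on II shared a peak of 35.4 and Y38E10A.t1 on II had 33.8, all unbound in the thresholded set. Replicate 1 called both B0491 genes and replicate 2 called Y38E10A.t1, so the family had 2 bound copies of 5 in the thresholded set and 4 and 3 in the replicates. The upstream bases of B0491.t1 and B0491.t2 are the same at 54 of 60 positions, and each holds a TATA. Those of the bound copies Y37A1B.t1 and Y105C5A.t2 are the same at 29 of 60, and the 6 pairs of a bound and an unbound copy at 9 to 30 of 60. In the phenylalanine family ZC412.t1 had 439 and Y66D12A.t1 40.8, and the unbound F22B7.t3, F22B7.t4 and C06G4.t1 had 34.4, 34.3 and 27.4. Each of these 3 was called by 1 replicate. In these 60 bases ZC412.t1 matched the other copies at 12 to 17 positions.

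The same bodies can be compared between the autosomes and X. On the 43 bodies found on both, 125 of 223 autosomal genes were bound (56.1%, 49.3 to 62.7%) against 144 of 185 X genes (77.8%, 71.2 to 83.6%). The replicates gave 49.8% and 61.4% on the autosomes, and 66.5% and 75.1% on X. The X share was higher at 29 bodies, lower at 6 and equal at 8. The glycine body had 5 of 18 on the autosomes and 10 of 11 on X, and the asparagine body 3 of 13 and 5 of 5. The aspartate body was the other way round in the thresholded set, with 10 of 11 and 7 of 10. Of its 11 autosomal copies replicate 1 called 6 and replicate 2 called 10. Over all genes X had 200 of 276 bound (72.5%, 66.8 to 77.6%), and 67.9% ± 4.87 over the replicates (SD, n = 2). The autosomal and X intervals do not overlap, whether over all genes or over shared bodies, and in each replicate X was the higher.

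**Figure D5:**
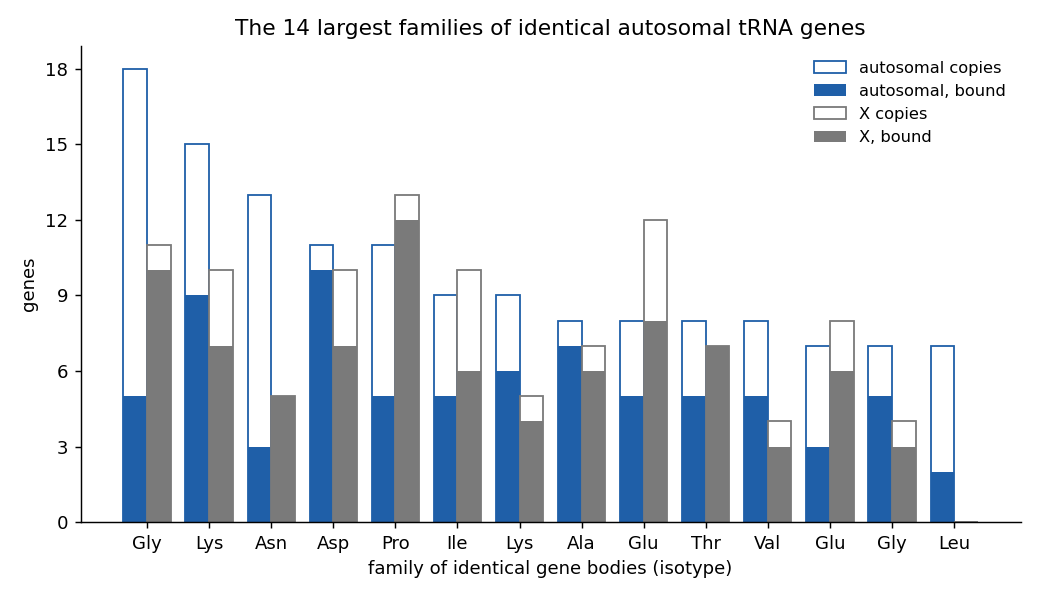
Number of genes (y axis) in the 14 largest families of identical autosomal gene bodies (x axis, named by isotype). Blue bars are autosomal copies and grey bars X copies, with the bound part filled. In the glycine family 5 of 18 autosomal and 10 of 11 X copies were bound.

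Genes with a sequence of their own were bound less often than genes with copies, 30 of 86 (34.9%, 24.9 to 45.9%) against 137 of 250 (54.8%, 48.4 to 61.1%). In replicate 1 the shares were 36.0% and 48.8%, and in replicate 2 33.7% and 58.8%. Without IV they were 31.4% and 48.2%. The median share of unique words was 85.6% at bound and 88.2% at unbound single-sequence genes, and 68.8% and 66.5% at bound and unbound genes with copies. The part of read placement in the difference was not tested. On X the shares were 57.9% and 76.3%.

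Place within other genes went with a smaller difference. Of the 194 tRNA genes inside a protein-coding gene 88 were bound (45.4%, 38.2 to 52.7%), against 79 of 139 outside (56.8%, 48.2 to 65.2%). The intervals overlap, and both replicates had the inside share lower, 39.2% against 54.7% and 47.4% against 60.4%. Genes on the host's strand and on the opposite strand had 50 of 115 and 38 of 78. On X the order was the other way, 76.0% inside and 70.6% outside.

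Genes in larger groups of neighbours had a higher bound share than pairs or single genes, and IV held many of them. In the 9 groups of 3 or more genes with steps of at most 2000 bp, 23 of 30 genes were bound (76.7%, 57.7 to 90.1%), against 40 of 88 in pairs (45.5%) and 104 of 218 single genes (47.7%). Of the 30, 14 are on IV, where 13 were bound (13 and 12 in the replicates). The other 16 lie in 5 groups, and 10 of them were bound (62.5%, 9 and 8 in the replicates). Pairs outside IV had 34 of 82 bound (41.5%, 38 and 39 in the replicates). Outside IV both replicates thus gave a smaller difference than the thresholded set. On IV the 4 genes Y105C5B.t4, Y105C5B.t1, Y105C5B.t3 and Y105C5B.t2 were bound over 3 peaks with pooled signals of 99.1 to 146. The 4 genes from Y65A5A.t1 to Y65A5A.t4 each had a peak of their own, from 97.6 to 166. Both groups lie inside the piRNA clusters. On III the 3 genes K04C2.t3, K04C2.t2 and K04C2.t1 were bound over 2 peaks, but replicate 1 called only 1 of them and replicate 2 called 3. On II F49C5.t4, F49C5.t3 and F49C5.t2 were also bound over 2 peaks, with 3 and 2 called in the replicates. On I none of the 4 glycine genes from C12C8.t5 to C12C8.t3 was bound in the thresholded set. Replicate 1 called C12C8.t5 and C12C8.t2, which share a pooled peak of 19.7. C12C8.t4 and C12C8.t3 share a pooled peak of 15.0 and were called in neither replicate. On V the largest groups were pairs. Of the 44 pairs in all, 8 held 1 bound and 1 unbound gene.

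The internal promoter letters that were searched stood in both bound and unbound genes. The B box core GGTTCGA, searched on the gene's strand within the gene, was present in 218 of 336 genes (64.9%), and in 0.291% of autosomal windows of 72 bases. Of genes with it 46.3% were bound. Its variant GGTTCAA was present in 61 genes, of which 37 were bound (60.7%, 47.3 to 72.9%; 44.3% and 59.0% in the replicates). Of the 57 genes with neither, 29 were bound (50.9%). The 4 letters TGGC, the usual start of the A box, were present in 146 genes, 67 of them bound. A TTTT run within 30 bases after the gene was present at 332 of 336, so it could separate nothing.

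Before the gene, a TATA within the 60 bases before the start, on the gene's strand, was found at 64 genes, of which 23 were bound (35.9%, 24.3 to 48.9%), and 144 of the other 272 were bound (52.9%, 46.8 to 59.0%). These intervals overlap. In the replicates the shares were 35.9% and 37.5% with TATA and 47.8% and 55.9% without. Leaving out IV gave 28.8% and 47.4%. TATA stood in 19.9% of autosomal windows of that length, close to the 19.0% of these genes. On X the shares with and without TATA were 69.8% and 73.2%. The median AT content of the 60 bases was 55.0% at bound and at unbound autosomal genes.

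Genes with an intron had a bound share whose interval overlapped that of the rest. Of the 17 with 2 annotated exons 7 were bound (41.2%, 18.4 to 67.1%), against 160 of 319 without an intron (50.2%, 44.5 to 55.8%). The strongest were the tyrosine gene ZK1067.t1, with 95.3, 81.3 and 179 in replicate 1, replicate 2 and the pooled list, and the leucine gene C14B9.t2, with 59.5, 38.2 and 105. The long leucine genes F22B7.t1 and ZK822.t1 had summits 160 and 135 bp after the start, beyond the end of genes of 120 and 119 bp.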

How the data were processed

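SNPC-4 ChIP-seq of whole young adults was analysed from the peak lists the authors deposited on ce11: 1 list of 30000 regions for each replicate, 1 for both pooled, and a thresholded set of 1648. Per the deposited text records, the lists of peaks and background were input to an irreproducible discovery rate step. What aligned the reads and called the peaks, and at which versions and threshold, is not stated in the labels or the text records used here. Each deposited region has a signal value, a −log10 q-value and a summit offset. The signal ranked peaks within a list only. The deposited −log10 q-value was at its ceiling for all 167 bound genes and ranked nothing. Read depth is unknown.

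Summits were placed against Ensembl 115 gene starts with numpy 2.4.6 and pandas 2.3.3, and a gene took the strongest peak within 500 bp. Positions are 1-based. The window code was tested on simulated summits. Intervals are Clopper-Pearson at 95% (scipy 1.17.1). For the replicates, the 1648 strongest peaks of each list were used. Uniqueness is the share of 32-base words within 100 bp of the start that occur once in the genome. The piRNA clusters are runs of at least 1000000 bp on IV made of 100000 bp bins with at least 50 piRNA genes, bins under 300000 bp apart joined. A gene is inside a protein-coding gene when its body lies within that gene's span.

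The genes, lists, groups and alternatives were chosen with earlier results of these data known. The text names the 12 strongest peaks, the 4 genes on either side of the threshold, the first 8 genes with no summit in any list, the genes where replicates differ most, the strongest bound and 1 unbound copy of the 3 largest families, the largest group of neighbours per chromosome and the strongest genes with introns or unusual length. The difference between replicates was ranked by signal percentile among genes with a peak in both lists. Other genes were chosen after their values were seen and are named as such or as examples within a group.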

Additional observations from a re-analysis of the deposited data

How the results depend on the processing

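The count of 167 bound genes was 97 with the 824 strongest thresholded peaks and 56 of 137 with 1 gene per identical body, and 153 to 176 with each replicate left out in turn. The 79 summits inside the gene became 48 and 28 under the first 2 settings, and 66 to 70 with a replicate left out. The median signal percentile among thresholded peaks, 55.8, was 57.3 with a 1000 bp window, 50.7 with 1 gene per body, 54.4 without genes near another short noncoding gene and 60.7 to 61.8 with a replicate left out. Leaving out the piRNA clusters gave 47.9 and leaving out IV gave 46.1; both settings were chosen after seeing the data.

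The median nearest summit, 16 bp, was 14 with the stronger peaks, 31 with 1 gene per body, 19 without genes near another tRNA gene, 18 by the strongest summit, 19.5 without the clusters, 19 without IV and 18 to 18 with a replicate left out. The difference between genes inside and outside protein-coding genes, -11.5 percentage points, was -14.3 with 1 gene per body, -15.7 without genes near another tRNA gene, -7.54 without the clusters, -9.52 without IV and -15.5 to -13.0 with a replicate left out. For single-sequence genes against genes with copies, -19.9 points, the replicates gave -25.1 to -12.8 and no other setting moved it beyond their spread.

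X minus autosomes, 22.8 points, was 18.8 with 250 bp, 25.5 with 1000 bp, 18.2 with the stronger peaks, 14.6 with each summit given to its nearest tRNA gene, 17.9 with 1 gene per body, 24.4 without genes near another short noncoding gene, 23.2 without genes near another tRNA gene, 27.0 without the clusters, 28.7 without IV and 18.957 to 18.9959 with a replicate left out. No difference changed sign under these settings, but the signal percentile fell below the middle of the thresholded peaks without the clusters or IV. Where a value moved the cause was not tested. Depth is unknown, so a gene without a peak is one not detected in these lists.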
